A study of Mus musculus with 4 samples.

Results

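The 26S proteasome is the protease that degrades proteins tagged with ubiquitin chains. Its 20S core is a barrel of outer alpha rings, which gate the entry, and inner beta rings, which hold the cutting sites, and its 19S cap binds, unfolds and feeds in the tagged protein. Cullin-RING ligases, the family that Cul3 belongs to, attach such chains, so the proteasome acts directly after them. In thymocytes the core can also carry the interferon-inducible subunits Psmb8, Psmb9 and Psmb10, and the thymic subunit Psmb11 is known from cortical epithelium, where it takes part in the selection of CD8 T cells. NRF1 and NRF2, factors that bind antioxidant response elements, can switch on proteasome genes, and NRF2 is itself a substrate of the Cul3 ligase with the adaptor Keap1.

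The genes described here are those with a single-gene probe set whose symbol is Pomp or starts with Psma to Psmg and a number, leaving out the immunoproteasome genes Psmb8, Psmb9 and Psmb10. They were 47 of 18193 genes named on the array, with 100 probe sets. By role they were 8 alpha subunits, 7 constitutive beta subunits, the thymic subunit Psmb11, 6 ATPases and 11 non-ATPase subunits of the 19S cap, 4 activators or inhibitors and 8 assembly factors. The remaining 2, Psmc3ip and Psme3ip1, matched through their symbols and are neither subunits nor assembly factors. Psmc3ip acts in meiotic recombination and Psme3ip1 binds the activator encoded by Psme3. Psme2 shares its probe set with a second gene symbol and was therefore not a member.

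RNA came from CD4 single-positive thymocytes of B6 mice, sorted as CD25-, CD1d-PBS57 tetramer-negative and gamma delta TCR-negative. The 2 KO arrays were from CD4 Cre+ Cul3fl/fl animals and the 2 LM arrays from CD4 Cre- Cul3fl/fl animals, so both groups carried the floxed alleles and only KO the Cre transgene. The Cd4 promoter drives this Cre, which acts from the CD4 CD8 double-positive stage on, and no array had Cre without floxed Cul3, so Cre and Cul3 removal cannot be told apart. The labels do not state ages or how many animals went into an array, and the p-values rest on the spread of these 4 arrays, which may be technical. An exact permutation test of 2 arrays against 2 cannot give a p below 0.33, so tests came from limma, fitted across all genes.

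The targeted gene was checked first. The brightest Cul3 probe set had signals of 5380 and 5577 on the KO arrays and 5333 and 5724 on the LM arrays, a log2 difference of -0.01 ± 0.09 (SE, n = 2 each, limma adjusted p = 0.994). Across all 5 probe sets the difference ran from -0.15 to 0.31. Where these probe sets lie relative to the deleted part is not given in the sources used here, so they do not check the genotype. KO and LM therefore mean arrays carrying those labels throughout.

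Signals were compared as quantile normalized log2(signal + 16), and a gene was tested if it lay above background on at least 2 arrays. Of the 47 genes 45 passed, all 45 of them on all 4 arrays, so none passed through 1 group alone. The other 2 were dim throughout. Psmb11 read 4.4 and 15.2 on the KO arrays and 30.5 and 8.9 on the LM arrays, and Psma8, a testis form of an alpha subunit, read 35.1 and 6.3 on the KO arrays and 18.8 and 3.4 on the LM arrays. Background, taken from olfactory and vomeronasal receptor probe sets, was 97.5 and 83.4 on the KO arrays and 109 and 85.2 on the LM arrays, so neither gene was measured above it on any array.

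The CD4 T cell markers Cd4, Cd3e, Cd3g, Cd5 and Zbtb7b were above background on all arrays, with summed signals of 33733 and 30877 on the KO arrays and 32549 and 33966 on the LM arrays. Double-positive thymocyte markers summed to 4065 and 4206 on the KO arrays and 3528 and 4222 on the LM arrays, with Dntt the brightest. Sums for cytotoxic, B cell, myeloid, cortical epithelial and erythroid markers lay between 110 and 761 on every array. Proliferation markers were lower on the KO arrays, with summed signals of 6731 and 7028 against 13144 and 14502 on the LM arrays. All 8 tested were lower in KO without overlap between groups, against 18.3% of all tested genes. At an adjusted p of 0.05 in limma, 4 (Mki67, Top2a, Ccna2 and Kif11) were called, against 0.275% of all tested genes in either direction. The part of these differences in the proteasome values was not tested. In bulk RNA, fewer cells of a type and less RNA per cell cannot be told apart.

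Promoter sequences were looked up for the sites through which NRF1 and NRF2 act, since they tie the proteasome to the Cul3 ligase. RefSeq promoters (build GRCm38.p6, 250 bases before to 50 after the start) were found for 39 of the 47 genes. The antioxidant response element core TGACNNNGC, searched on both strands, was present in 6 of them, 15.4%, against 16.9% of 9151 tested genes and 14% of all 27025 genes in the table. The windows below run 5′ to 3′ on the gene's strand, with the match in capitals; GC at the left end of a match means that the motif lies on the opposite strand.
Psmb5 (chr14:54618024-54618052, minus strand): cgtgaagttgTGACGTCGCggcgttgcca
Psmb6 (chr11:70525338-70525366, plus strand): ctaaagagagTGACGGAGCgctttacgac
Psmc6 (chr14:45329587-45329615, plus strand): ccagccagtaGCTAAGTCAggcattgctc
Psmd12 (chr11:107479278-107479299, plus strand): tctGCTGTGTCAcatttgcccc
Psme4 (chr11:30771758-30771786, plus strand): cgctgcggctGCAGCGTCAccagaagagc
Psmd9 (chr5:123228149-123228177, plus strand): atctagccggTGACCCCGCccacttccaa
The matches began 47 bases before the start for Psmb5, 9 before for Psmb6, 31 before for Psmd9 and 7 before for Psme4, while those of Psmc6 and Psmd12 began 227 and 247 bases before it. A match is a string of letters, not a shown binding site.

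A second motif was more frequent in these promoters than in the table. The ETS core CCGGAAG, also searched on both strands, occurred in 17 of the 39 promoters, 43.6%, against 20.7% of tested genes and 9.93% of all genes in the table. The CCAAT box, searched as CCAAT, occurred in 15 of 39, 38.5%, against 42.8% of tested genes. A gene counted if any of its promoters held the motif, and Psma6 and Psmc2 had several. Among members with 1 promoter, 0 pairs of matches to different motifs overlapped. The following windows show, for each proteasome role with a match wholly upstream of the start, 1 such match; Psmc3ip and Psme3ip1, the members by symbol only, also held the motif.
Psma6 (chr12:55398683-55398709, plus strand): gagccaccacCCGGAAGcccgcggacc
Psmc2 (chr5:21786713-21786739, plus strand): cgcggagctaCTTCCGGtggggaagag
Psmd11 (chr11:80428594-80428620, plus strand): gagggcgggtCTTCCGGgtgtgtgttt
Psme4 (chr11:30771712-30771738, plus strand): tggccccgccCCGGAAGtgacttgagg
Pomp (chr5:147860569-147860595, plus strand): gaaggacgcaCTTCCGGcggatggggc
The capitals read CCGGAAG where the motif lies on the gene's strand and CTTCCGG where it lies on the other. No beta subunit promoter in the table held it. These shares are descriptions and were not tested.

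The main comparison asked whether RNA levels of the proteasome differed between KO and LM thymocytes. No proteasome gene passed the threshold: 0 of 45 tested were called at an adjusted p of 0.05 in limma, where 0.275% of all 11253 tested genes were. At an unadjusted p below 0.05 there was 1, Psmf1, or 2.22% of the 45, against 8.39% of all tested genes. The median difference was 0.02 on the log2 scale, with 25 genes positive and 20 negative, beside a median of 0.00 over all tested genes, of which 50.3% were positive. With each array centred on its median instead, the median was -0.04, with 16 genes positive and 29 negative, and that of all genes -0.046. Differences ran from -0.66 for Psmf1 to 0.25 for Psmd7. On the normalized scale the KO arrays lay wholly above the LM arrays for 8 genes, 17.8%, against 19.1% of all tested genes. They lay wholly below for 7, 15.6%, against 18.3%. Which genes overlap depends on the scale. Of the genes higher in KO, Psma3, Psma7, Psmb4 and Psmc3 overlapped in deposited signal. Psmc4, which overlapped on the normalized scale, lay wholly below in deposited signal.

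**Figure D1:**
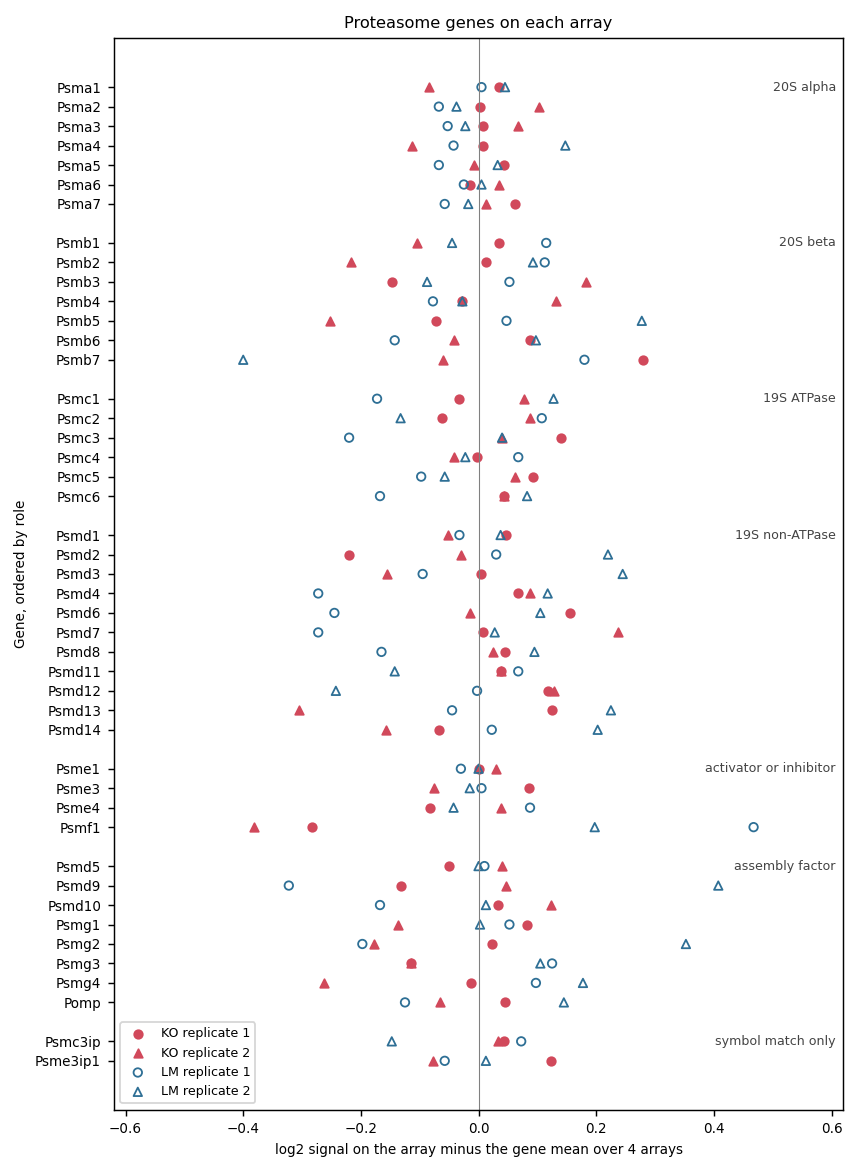
Normalized log2 signal of each of the 45 tested genes on each array, minus the gene's mean over the 4 arrays (horizontal axis), with genes grouped by role down the page; filled red symbols are KO arrays and open blue symbols LM arrays. KO and LM symbols mix in most rows, and Psmf1 has the KO symbols farthest left of the LM symbols.

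The differences were narrow as well as small. The median absolute difference was 0.08 over the 45 genes and 0.17 over all tested genes, and 42 of 45, 93.3%, differed by less than 0.25, against 65.7% of all tested genes. Since the spread depends on brightness, genes of a like level were also set beside them. Among 1959 other tested genes with a mean signal in the middle range of the members (25th to 75th percentile), the median absolute difference was 0.12 and 83.9% differed by less than 0.25. The 45 genes themselves were not cut to that range, so the match in level is partial. The 95% interval lay within 1.5-fold in either direction for 35 of the 45 genes and within 2-fold for 44, all but Psmf1. For all 31 tested subunits of the 20S core and 19S cap the interval lay within 2-fold, the widest limits being 60.5% of the LM level for Psmb5 and 155% for Psmd7. Differences inside these limits could not be resolved with 2 arrays per group.

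**Figure D2:**
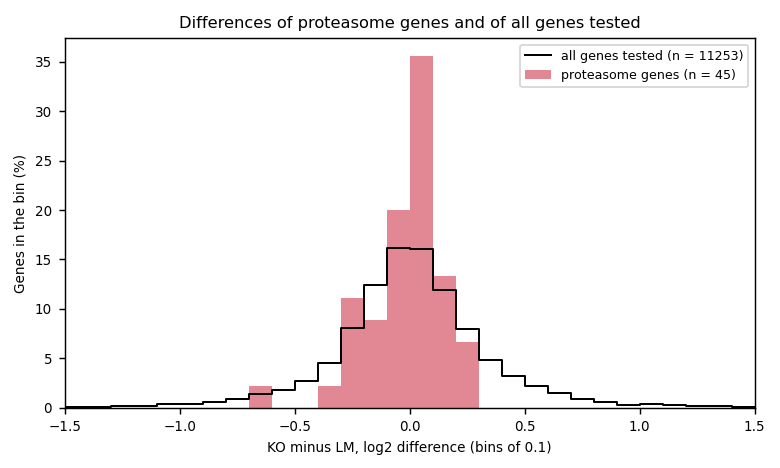
Share of genes (%) in bins of 0.1 of the KO minus LM log2 difference, for the 45 tested proteasome genes (red bars) and all 11253 tested genes (black line). The bars are concentrated near 0, with 42 of 45 genes between -0.25 and 0.25 and Psmf1 alone in the bin at its value of -0.66.

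The 20S alpha subunits form the outer rings and the gate of the core. All 7 tested lay between -0.10 and 0.10, with a median of 0.04 (-0.03 with median centring). Psma2 had log2 signals of 12.27 and 12.37 on the KO arrays and 12.20 and 12.23 on the LM arrays, a difference of 0.10 ± 0.10 (SE, adjusted p = 0.875). For Psma7 the values were 12.34 and 12.29 on the KO arrays and 12.22 and 12.26 on the LM arrays (0.07 ± 0.10). On the normalized scale both KO arrays lay above both LM arrays for these genes and for Psma3 (0.08), by no more than the standard error. These were 42.9% of the 7, against 19.1% of all tested genes. In deposited signal the groups overlapped for Psma3 (KO replicate 1 4354, LM replicate 2 4399) and Psma7 (KO replicate 2 4943, LM replicate 2 5027). Psma4 went the other way, with 11.52 and 11.40 on the KO arrays and 11.47 and 11.66 on the LM arrays (-0.10 ± 0.13), and its groups overlapped. Psma6, at 12.96 and 13.01 on the KO arrays and 12.95 and 12.98 on the LM arrays, differed by 0.02 ± 0.08. Its probe set and those used for Psmb4 and Psmc2 carry the suffix x_at, which the manufacturer gives to probe sets that may also bind other transcripts. Psma1 (-0.05) and Psma5 (0.04) completed the ring.

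Of the 7 constitutive beta subunits, 4 were positive and 3 negative, with a median of 0.04 (-0.02 with median centring). Psmb5 carries the chymotrypsin-like site, the main target of proteasome inhibitor drugs, and was the lowest relative to LM among the core subunits. Its log2 signals were 9.95 and 9.77 on the KO arrays and 10.07 and 10.30 on the LM arrays. Both KO arrays lay below both LM arrays, a difference of -0.33 ± 0.18 (adjusted p = 0.710) that did not pass the threshold, and the interval of -0.72 to 0.07 includes 0. Psmb6, with the caspase-like site, had 10.74 and 10.61 on the KO arrays and 10.51 and 10.75 on the LM arrays (0.04 ± 0.16). The third catalytic subunit, Psmb7, with the trypsin-like site, had 12.37 and 12.03 on the KO arrays and 12.27 and 11.69 on the LM arrays (0.22 ± 0.17, adjusted p = 0.822). LM replicate 2 was low for this gene: without it the difference was -0.07, and without LM replicate 1 it was 0.52 (adjusted p = 0.0871 in that fit). Psmb6 turned negative with median centring (-0.02), without LM replicate 1 (-0.08) and without KO replicate 1 (-0.02). The 3 catalytic subunits, which sit in the same rings, thus differed in sign in the main fit, but only Psmb5 kept its sign under every alternative. No test of a difference between them was made.

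Psmb2, a non-catalytic beta subunit, had 11.92 and 11.69 on the KO arrays and 12.02 and 12.00 on the LM arrays, both KO arrays being lower (-0.21 ± 0.12, adjusted p = 0.723). Psmb4, another, had 12.58 and 12.74 on the KO arrays and 12.53 and 12.58 on the LM arrays (0.11 ± 0.09, adjusted p = 0.845). Psmb1 differed by -0.07 and Psmb3 by 0.04. The immunoproteasome counterparts, which were not members, were measured for comparison. Psmb8, which replaces Psmb5, had signals of 4488 and 3910 on the KO arrays and 3860 and 4696 on the LM arrays, a log2 difference of -0.00 ± 0.12. Averaged with its dim second probe set, it differed by 0.50 (adjusted p = 0.403). Psmb9, which replaces Psmb6, differed by -0.19 ± 0.11 (adjusted p = 0.703), and Psmb10, which replaces Psmb7, by 0.12 ± 0.15. None of these 3 passed the threshold.

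The 6 ATPases form the ring that unfolds substrates and threads them into the core. Psmc4 was at -0.04 and the other 5 were positive, with a median of 0.07; with median centring Psmc1 and Psmc2 were also negative (-0.03 and -0.04) and the median was -0.01. Psmc3 had 10.85 and 10.75 on the KO arrays and 10.49 and 10.75 on the LM arrays (0.18 ± 0.16, adjusted p = 0.846), LM replicate 1 being the low array. Psmc5 had 10.87 and 10.84 on the KO arrays and 10.68 and 10.72 on the LM arrays, so that the KO arrays were both higher, by 0.16 ± 0.15 (adjusted p = 0.856). In Psmc6 the values were 11.54 and 11.54 on the KO arrays and 11.33 and 11.58 on the LM arrays (0.08 ± 0.13). Psmc1 differed by 0.05 and Psmc2 by 0.02. Leaving out LM replicate 2 raised the median of the ATPases to 0.19, and leaving out LM replicate 1 lowered it to 0.03.

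The non-ATPase subunits of the cap recognise ubiquitin, remove it and hold the cap together. Of 11 tested 6 were positive and 5 negative, between -0.25 and 0.25. Psmd14, the deubiquitinase that strips the chain as the substrate enters, had 11.82 and 11.73 on the KO arrays and 11.91 and 12.09 on the LM arrays. Both KO arrays were below both LM arrays, by -0.22 ± 0.12 (adjusted p = 0.685). Psmd7, its partner in the enzyme pair, had 10.41 and 10.64 on the KO arrays and 10.13 and 10.43 on the LM arrays, with overlap between groups (0.25 ± 0.18, adjusted p = 0.800). Thus the differences of these partners had opposite signs, neither past the threshold.

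Psmd2, a large scaffold that docks shuttle factors, had 10.68 and 10.87 on the KO arrays and 10.93 and 11.12 on the LM arrays, KO being lower without overlap (-0.25 ± 0.15, adjusted p = 0.746). Psmd12, a lid subunit, had 10.51 and 10.52 on the KO arrays and 10.39 and 10.15 on the LM arrays, KO being higher without overlap (0.24 ± 0.17, adjusted p = 0.789). The ubiquitin receptor Psmd4 differed by 0.15 ± 0.17. The other scaffold of the base, Psmd1, differed by -0.01, and the lid subunits Psmd3, Psmd6, Psmd8, Psmd11 and Psmd13 by -0.15, 0.14, 0.07, 0.08 and -0.18. Psmd11, with 8 probe sets the most densely covered member, was represented by one with the suffix s_at, which marks probes shared between transcripts.

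**Figure D3:**
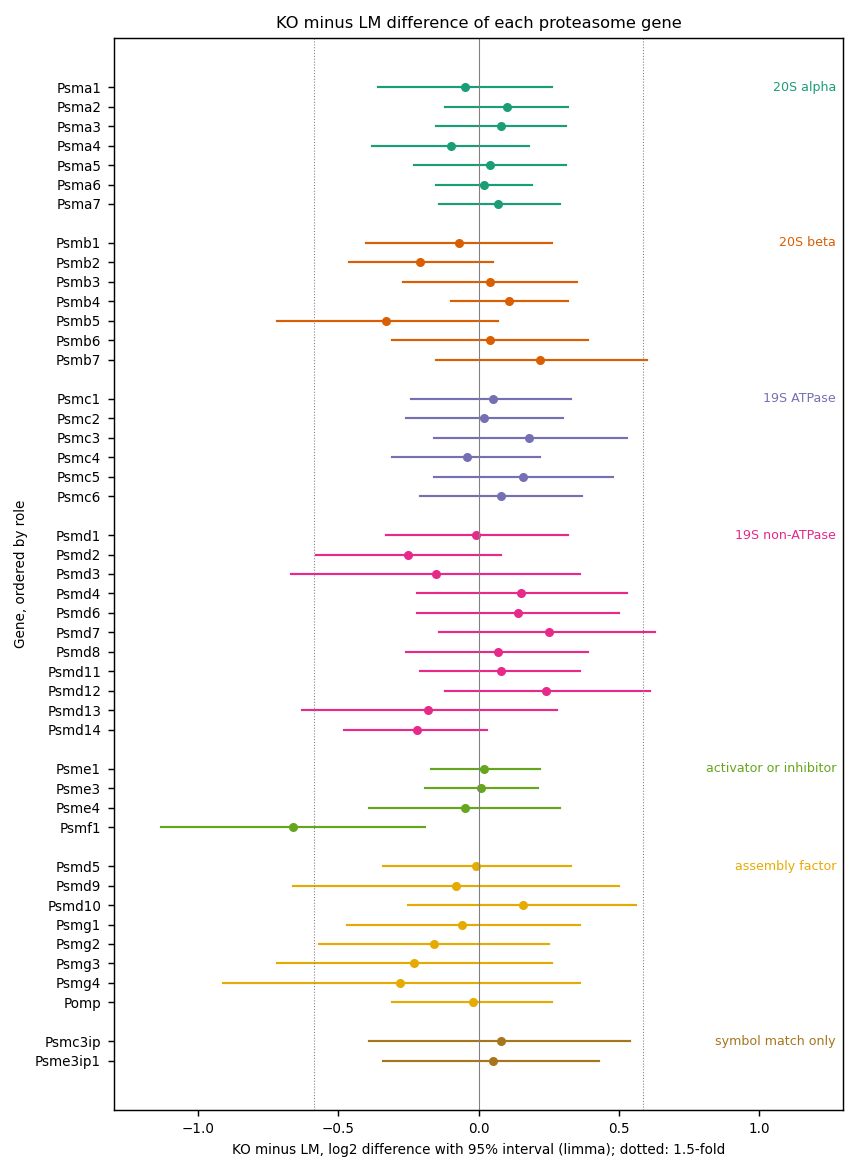
KO minus LM log2 difference (point) and 95% interval from limma (line) for each tested gene, by role; dotted lines mark 1.5-fold in either direction. The interval of Psmf1, -1.13 to -0.19, is the only one that does not include 0.

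Among activators and inhibitors, Psmf1 stood apart. It encodes PI31, first described as an inhibitor of the 20S core. Its log2 signals were 8.75 and 8.65 on the KO arrays and 9.50 and 9.23 on the LM arrays, a mean of 8.70 ± 0.07 against 9.37 ± 0.19 (SD, n = 2 each). The difference of -0.66 ± 0.22 puts KO at 63.1% of LM, with an interval of 45.6% to 87.4%, at an unadjusted p of 0.00952 in limma. Adjusted over all tested genes the p was 0.368, so Psmf1 did not pass. It ran from -0.79 to -0.53 when 1 array was left out.

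Its 4 probe sets did not move together. The one used, 1424370_s_at, read 412 and 390 on the KO arrays and 722 and 576 on the LM arrays. Probe set 1424369_at read 96.5 and 83.3 on the KO arrays, both just below background, and 142 and 113 on the LM arrays. Its log2 difference was -0.50 ± 0.40, and it was above background on the LM arrays only. The remaining ones overlapped between groups, with 238 and 283 on the KO arrays and 244 and 215 on the LM arrays for 1424371_at and 354 and 387 against 401 and 315 for 1451337_at. Their log2 differences were 0.15 ± 0.28 and 0.06 ± 0.23. Averaged over its probe sets, Psmf1 differed by -0.24 (adjusted p = 0.827). Which transcripts each probe set reads is not given in the sources used here.

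**Figure D4:**
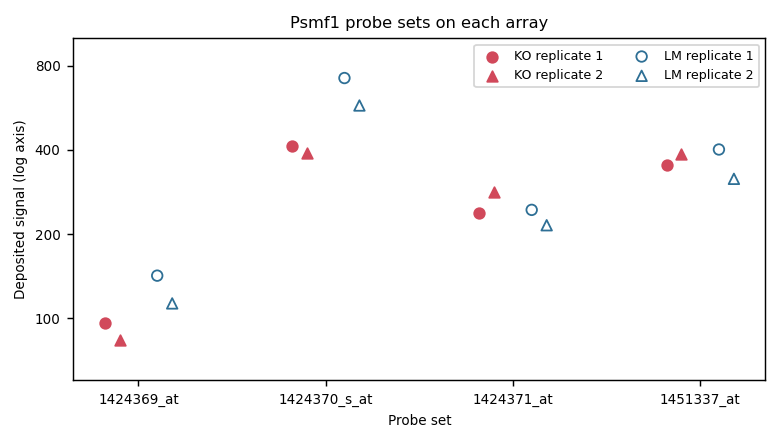
Deposited signal (log axis) of the 4 Psmf1 probe sets on each array; filled red symbols are KO arrays and open blue symbols LM arrays. KO lies below LM for 1424369_at, where both KO signals are below background, and for 1424370_s_at. The groups overlap for 1424371_at and 1451337_at.

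The activators differed little. Psme1, a subunit of the interferon-inducible cap PA28, had 12.53 and 12.56 on the KO arrays and 12.50 and 12.53 on the LM arrays (0.02 ± 0.09). Psme3, the nuclear relative of PA28, had 12.77 and 12.61 on the KO arrays and 12.69 and 12.67 on the LM arrays (0.01 ± 0.09). Psme4, the nuclear activator PA200, had 10.52 and 10.64 on the KO arrays and 10.69 and 10.56 on the LM arrays (-0.05 ± 0.16). The intervals of Psme1 and Psme3 lay within 88.7% to 117% and 87.5% to 116% of the LM level, among the tightest limits of the set.

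Of the 8 assembly factors, 7 were negative and Psmd10 positive, with a median of -0.07 and none past the threshold. Psmg3 and Psmg4, chaperones that build the alpha ring, were the lowest relative to LM. Psmg4 had 7.81 and 7.56 on the KO arrays and 7.92 and 8.00 on the LM arrays (-0.28 ± 0.29, adjusted p = 0.878). Psmg3 had 8.52 on both KO arrays and 8.76 and 8.74 on the LM arrays (-0.23 ± 0.23, adjusted p = 0.869). Both showed KO below LM without overlap, yet with differences no larger than their standard errors. The alpha-ring chaperones Psmg1 and Psmg2 differed by -0.06 and -0.16.

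Pomp, the factor that helps the beta subunits assemble and is degraded by the finished core, had 11.71 and 11.60 on the KO arrays and 11.54 and 11.81 on the LM arrays (-0.02 ± 0.13), the LM arrays lying on either side of the KO arrays. Psmd10, a chaperone of the 19S base also known as gankyrin, had 9.80 and 9.89 on the KO arrays and 9.60 and 9.78 on the LM arrays, KO being higher without overlap (0.16 ± 0.19). The base chaperones Psmd5 and Psmd9 differed by -0.01 and -0.08. The sign of the assembly factor median depended on single arrays: it was -0.19 without LM replicate 1 and 0.05 without LM replicate 2. Of the members by symbol only, Psmc3ip had 9.04 and 9.03 on the KO arrays and 9.07 and 8.85 on the LM arrays (0.08 ± 0.21). Psme3ip1 had 10.18 and 9.98 on the KO arrays and 10.00 and 10.07 on the LM arrays (0.05 ± 0.18), and both overlapped between groups.

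How the members varied among the arrays was compared with all tested genes. The median deviation of the 45 genes from their own means was 0.02 and -0.01 on the KO arrays and -0.03 and 0.03 on the LM arrays. LM replicate 1 was the lowest of the 4 arrays for 20 of the 45 genes and KO replicate 2 for 16, whereas KO replicate 1 was lowest for 4 and LM replicate 2 for 5. Over all 11253 genes these arrays were lowest for 2861, 3118, 2674 and 2600 genes. The absolute gap between replicates had a median of 0.11 for the KO arrays and 0.18 for the LM arrays, and the absolute KO minus LM difference, taken between means of 2 arrays, one of 0.08. Over all tested genes these medians were 0.23, 0.20 and 0.17, in which the KO minus LM difference was likewise the smallest.

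Several probe sets per gene gave a further reading of the same arrays. Of the 100 member probe sets 89 were above background on at least 2 arrays, 47 of them positive and 42 negative, with a median of 0.02. Among the 23 genes with several such probe sets the signs agreed for 6 and differed for 17. With every probe set tested separately, 0 of the 89 passed the threshold.

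Promoter matches were then set beside the differences. The 6 genes with an antioxidant response element core were Psmb5 (-0.33), Psmb6 (0.04), Psmc6 (0.08), Psmd12 (0.24), Psme4 (-0.05) and Psmd9 (-0.08). Thus 3 were positive and 3 negative, with a median of -0.00, beside 0.02 over the 32 tested genes whose promoter had no match. Txnrd1, the thioredoxin reductase and a classical NRF2 target, was added after its value was seen. It does not stand for NRF2 targets as a set. Txnrd1 rose in the same fit, with signals of 2876 and 2028 on the KO arrays and 1024 and 1108 on the LM arrays (1.18 ± 0.18, adjusted p = 0.0202). Its call was lost without KO replicate 1 (0.93, adjusted p = 0.0658), without the filter on dim genes (adjusted p = 0.217) and without the intensity trend in limma (adjusted p = 0.406). For the 17 genes with an ETS core and the 21 without, the medians were 0.02 and 0.02. Of the 14 tested genes with a CCAAT box, 12 were positive and 2 negative, with a median of 0.05. The 24 without it had 10 positive and 14 negative, with a median of -0.01. This split was not tested, and the signs are those of the main fit. With median centring, 16 of all 45 members were positive and 29 negative. Several genes with the box then turned negative: Psma6 (-0.03), Psmb3 (-0.02), Psmc1 (-0.03), Psmc2 (-0.04), Psme3 (-0.05) and Psme3ip1 (-0.01). The split by sign therefore depends on the normalization. Psmc3ip and Psme3ip1, members by symbol only, were among the genes with the box.

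Genes that work around the proteasome were listed as 4 groups, and 0 genes of any group passed the threshold in limma, with 2 proteasome-bound factors and 2 genes of NRF1 and NRF2 control at an unadjusted p below 0.05. These were 15.4% and 20% of the tested genes of these groups, against 8.39% of all tested genes. Among factors that bind the proteasome (13 of 16 listed were tested) 8 were positive and 5 negative, with a median of 0.05. Zfand5, a zinc-finger protein that binds the proteasome and stimulates degradation, had the smallest p, with signals of 9832 and 8750 on the KO arrays and 7198 and 8204 on the LM arrays (0.27 ± 0.08, adjusted p = 0.339). Uchl5, a deubiquitinase of the cap, read 2934 and 2987 on the KO arrays and 3540 and 3614 on the LM arrays (-0.25 ± 0.12, adjusted p = 0.593). For the shuttle factor Ubqln2 the signals were 2176 and 2099 on the KO arrays and 1741 and 1741 on the LM arrays (0.29 ± 0.14, adjusted p = 0.629), and its relative Ubqln4 differed by 0.25 ± 0.16. In all 4 of these genes, named for having the smallest p, the KO and LM arrays did not overlap in signal. Over the 13 tested, KO lay wholly above LM for 4, 30.8%, against 19.1% of all tested genes. It lay wholly below for 1, 7.69%, against 18.3%. Averaged over their probe sets, Uchl5 and Ubqln2 turned sign, to 0.11 (adjusted p = 0.964) and -0.19 (adjusted p = 0.827).

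Genes that control NRF1 and NRF2 (10 of 11 listed) had a median of 0.04. Ngly1, whose product removes glycans from NRF1 so that it can become active, read 755 and 797 on the KO arrays and 1003 and 1123 on the LM arrays (-0.43 ± 0.18, adjusted p = 0.549). Nploc4, a cofactor of the segregase Vcp, differed by 0.35 ± 0.16 (adjusted p = 0.586). The small Maf proteins Mafk and Mafg, DNA-binding partners of NRF1 and NRF2, differed by 0.47 ± 0.25 and 0.54 ± 0.32 (adjusted p = 0.690 and 0.725). Nfe2l1, which encodes NRF1, differed by 0.14 ± 0.20, and Nfe2l2, which encodes NRF2, by -0.13 ± 0.17. These are RNA levels and do not measure the NRF2 protein, the form that the Cul3 ligase acts on. Of the ubiquitin genes and E1 enzymes only Uba6, an alternative E1, had a single-gene probe set, and it differed by 0.13 ± 0.15.

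**Figure D5:**
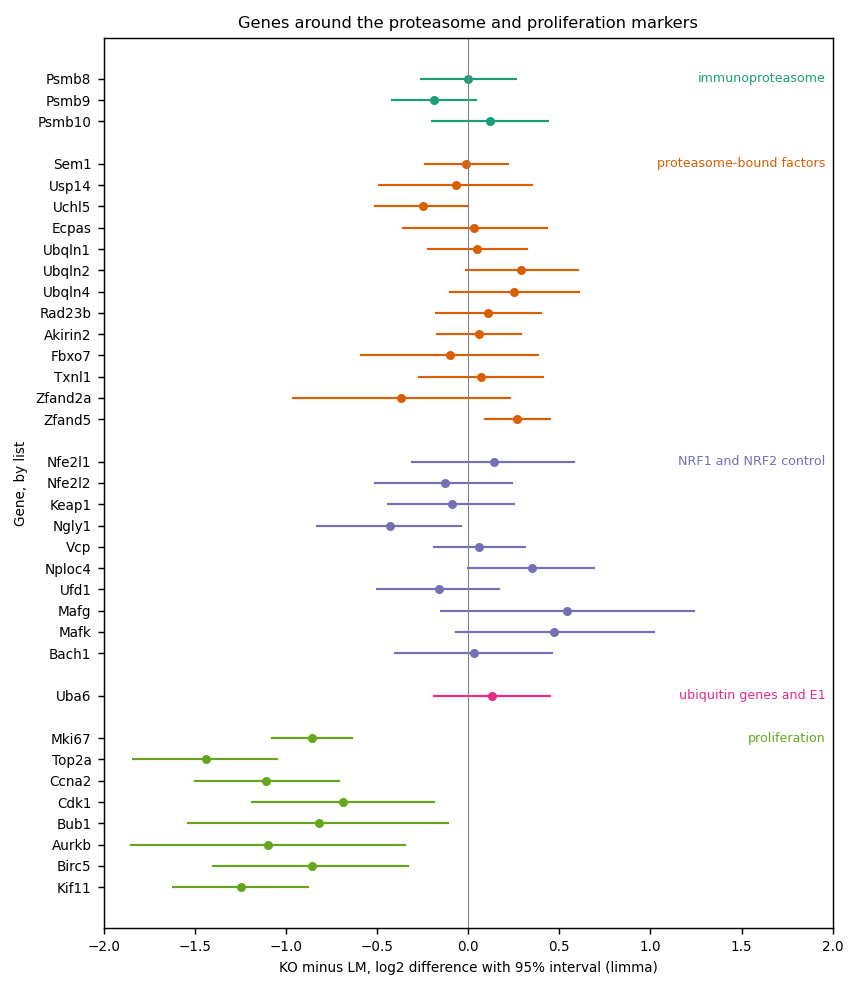
KO minus LM log2 difference (point) and 95% interval from limma (line) for tested genes of the immunoproteasome, of proteasome-bound factors, of NRF1 and NRF2 control and of ubiquitin supply, with proliferation markers at the bottom. All 8 proliferation markers lie to the left of 0, from -1.44 for Top2a to -0.69 for Cdk1, while the genes around the proteasome lie on both sides.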

How the data were processed

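For each of 4 arrays the authors deposited linear intensities, 1 per probe set, and each array's mean after trimming 2% at each end was 500.0. Neither the summarisation program nor the background correction or genome build was given in the sources used here. Total RNA was extracted with Trizol and amplified with the WT-Ovation Pico kit, per the labels' protocols. Of 45101 probe sets, 64 controls were set aside. The platform annotation gave 34945 a single symbol, 932 several and 9160 none; RefSeq held 34741 of the first kind, with 0 symbols updated.

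The analysis scale was quantile normalized log2(intensity + 16), on which dim genes differ less than in signal. Each gene was represented by its brightest probe set. Background on each array was the 95th percentile over 80 probe sets for olfactory and vomeronasal receptors. KO minus LM was fitted with limma 3.58.1 (R 4.3.3; lmFit, eBayes with intensity trend) on 11253 genes, two-sided, with Benjamini-Hochberg adjustment over all of them. The fit was tested on simulated data with the same spread for every gene and changes larger than that of any member. That simulation therefore does not show how the fit handles small changes. Array number limits the precision. Tables and plots used Python 3.11.15, pandas 2.3.3 and matplotlib 3.10.9.

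The members, gene lists and motifs were chosen with earlier results of these data known. Every member is given its difference. Array values are given for the 3 smallest p per role, the 5 highest signals, the catalytic subunits and Pomp, with Psmd7, the highest difference, added after its value was seen. Of each other list up to 4 genes with the smallest p are named. Values for Psmb8 to Psmb10, Nfe2l1, Nfe2l2 and Cul3 are also given, and Txnrd1 was added after its value was seen, as were the range of other genes at a like level and the ETS windows shown. Alternatives are in the closing section.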

Additional observations from a re-analysis of the deposited data

How the results depend on the processing

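The count of called proteasome genes was 0 under every alternative run: filtering dim genes less or more strictly, no normalization, median centring, pseudocounts of 1 and 64, limma without the trend or with robust moderation, probe set means, separate probe sets, a replicate block, each array left out (0 to 0), and an adjusted p threshold of 0.1. At an unadjusted p below 0.05 it ranged from 0 (probe set means) to 3 (without LM replicate 1), where Psmb7 had the smallest adjusted p, 0.0871. The labels give the numbers 1 and 2 as replicate names and do not say whether same-numbered arrays were paired. Same-numbered deviations correlated at -0.0167, a single value that cannot decide this with 2 arrays per group. With the replicate block the median was 0.02 and the count 0. The median over tested members was -0.04 with median centring, where the median of all genes was -0.046 and 16 members were positive and 29 negative; without 1 array it ran from -0.01 to 0.03. With median centring the role medians were -0.03 for alpha subunits, -0.02 for beta subunits, -0.01 for ATPases, 0.01 for non-ATPases, -0.08 for activators and inhibitors and -0.13 for assembly factors, and with probe set means -0.01 for alpha subunits and -0.11 for activators and inhibitors. Without 1 array they ran from 0.00 to 0.09 (alpha), -0.07 to 0.01 (beta), 0.03 to 0.19 (ATPases), -0.04 to 0.07 (non-ATPases), -0.06 to 0.01 (activators and inhibitors), -0.19 to 0.05 (assembly) and 0.01 to 0.12 (Psmc3ip and Psme3ip1). The causes were not tested. Of 45 members 29 changed sign in at least 1 alternative, each with a main difference of at most 0.23 in size, and 16 kept it. Over all genes, 31 calls in the fit reported became 0 without the filter or without the trend, where 1247 and 921 had an unadjusted p below 0.05, and 81 with median centring. Without 1 array they ran from 35 to 85. A lone array was assumed to vary like the other group.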

Other observations

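Values of some secondary probe sets are given here, chosen after they were seen. Psmd7 probe set 1432820_at read 382 and 351 on the KO arrays and 279 and 214 on the LM arrays (0.54 ± 0.26). Its probe set 1454368_at went the other way, with 176 and 176 on the KO arrays and 219 and 183 on the LM arrays (-0.21 ± 0.32). Psmd13 probe set 1445729_at read 218 and 133 on the KO arrays and 120 and 53.7 on the LM arrays (0.88 ± 0.48), whereas the probe set used for Psmd13 differed by -0.18. Psmg3 probe set 1430572_at read 102 and 192 on the KO arrays and 121 and 28.6 on the LM arrays (0.95 ± 0.60), whereas the probe set used differed by -0.23. On LM replicate 2, 1445729_at and 1430572_at lay below the background of 85.2, so their differences rest in part on a value not measured above it. None of these probe sets passed the threshold in limma.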
